A study of Mus musculus with 29 samples.

Results

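Rab4a and 9 other genes encoding Rab GTPases of endosomes were described in hippocampal RNA-seq from 29 mice. The 10 genes were Rab4a, Rab4b, Rab5a, Rab5b, Rab5c, Rab7, Rab11a, Rab11b, Rab14 and Rab21, matched by gene symbol among 31002 genes with a TPM value (a transcript level scaled for transcript length and for the size of each library). The set was chosen by a measured value, the lower level of Rab4a in 2-month hAβ-KI mice than in 2-month WT mice, and the 9 others were added because they act on endosomes. All 10 were found, and all 10 passed the filter for testing (at least 1 TPM in at least 2 mice), as did 15554 genes in all. The mice were WT (strain C57BL/6N in the labels) at 2 months (n = 7) and 22 months (n = 8), and homozygous hAbKI (hAβ-KI, strain C57BL/6NJ in the labels) at 2 months (n = 8) and 22 months (n = 6), with 18 males and 11 females. In hAβ-KI mice the Aβ stretch of the mouse App gene carries the human amino acids, and its exon is flanked by loxP sites, in every cell that uses App. The labels and the study's methods list the 2 genotypes under different stock strains, so that genotype and strain cannot be told apart. Each sample title ends in S and a number, which was taken here as a library index. The titles do not say what it counts. It ran from 1 to 7, 9 to 16, 17 to 24 and 25 to 31 in the WT 2-month, WT 22-month, hAβ-KI 2-month and hAβ-KI 22-month groups. The order of this index and group thus cannot be told apart either.

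Rab proteins are small GTPases that switch between a GTP-bound form on membranes and a GDP-bound form in the cytosol. Rab5 controls the entry of vesicles into early endosomes, Rab4 and Rab11 the fast and slow return of cargo to the cell surface, and Rab7 the passage to late endosomes and lysosomes. In neurons these routes carry neurotransmitter receptors and the amyloid precursor protein, and β-secretase cleaves the precursor in endosomes. The comparisons below describe whether the transcripts of this machinery differed between the genotypes and between the ages.

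Across the 29 libraries the listed genes summed to 717535 to 816940 TPM, mitochondrial genes took 8.54% to 10.9% of that sum, and 13528 to 14189 genes reached 1 TPM. Read counts per library were not used here, and the study's methods give only an approximate number of reads for each sample, so that no counting error is given. All 5 hippocampal neuron markers were present in all mice, from Prox1, a dentate granule cell factor (3.21 to 9.15 TPM), to Neurod6, a pyramidal cell factor (46.4 to 170 TPM). The sum of the 5 was 362 to 423 TPM in young WT, 320 to 401 TPM in young hAβ-KI, 330 to 375 TPM in old WT and 210 to 331 TPM in old hAβ-KI mice, and thus lowest in the last group. There, replicate 2 had 210 TPM and the other 5 mice 317 to 331 TPM. The summed choroid plexus markers, led by Ttr, ranged from 37.5 to 17980 TPM over the mice, with low and high mice in all 4 groups. App, the targeted gene, had 683 ± 27.5 TPM in WT and 633 ± 54.4 TPM in hAβ-KI mice at 2 months, and 611 ± 61.0 and 605 ± 54.2 TPM at 22 months (SD). The gene total cannot show the changed codons, and App passed the test in neither genotype comparison (adjusted p = 0.804 and 0.970, limma). In whole tissue, fewer cells of a type and less RNA per cell cannot be told apart.

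The 10 genes covered a wide range of levels. Rab11b, a recycling endosome GTPase of brain, was highest with a mean of 315 TPM over the 29 mice, followed by Rab7 with 272, Rab14 with 262 and Rab11a with 195 TPM. Rab4b followed with 104, Rab5b with 85.6, Rab4a with 52.7, Rab5a with 50.2 and Rab5c with 25.4 TPM, and Rab21, which acts in integrin uptake, was lowest with 4.88 TPM. Rab7 exceeded Rab14 in 18 of 29 mice and Rab4a exceeded Rab5a in 15 of 29, so that neither pair had a settled order. Rab5a exceeded Rab5c in 27 of 29 mice, and each of the other neighbours in the order kept its place in all 29 mice.

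**Figure D1:**
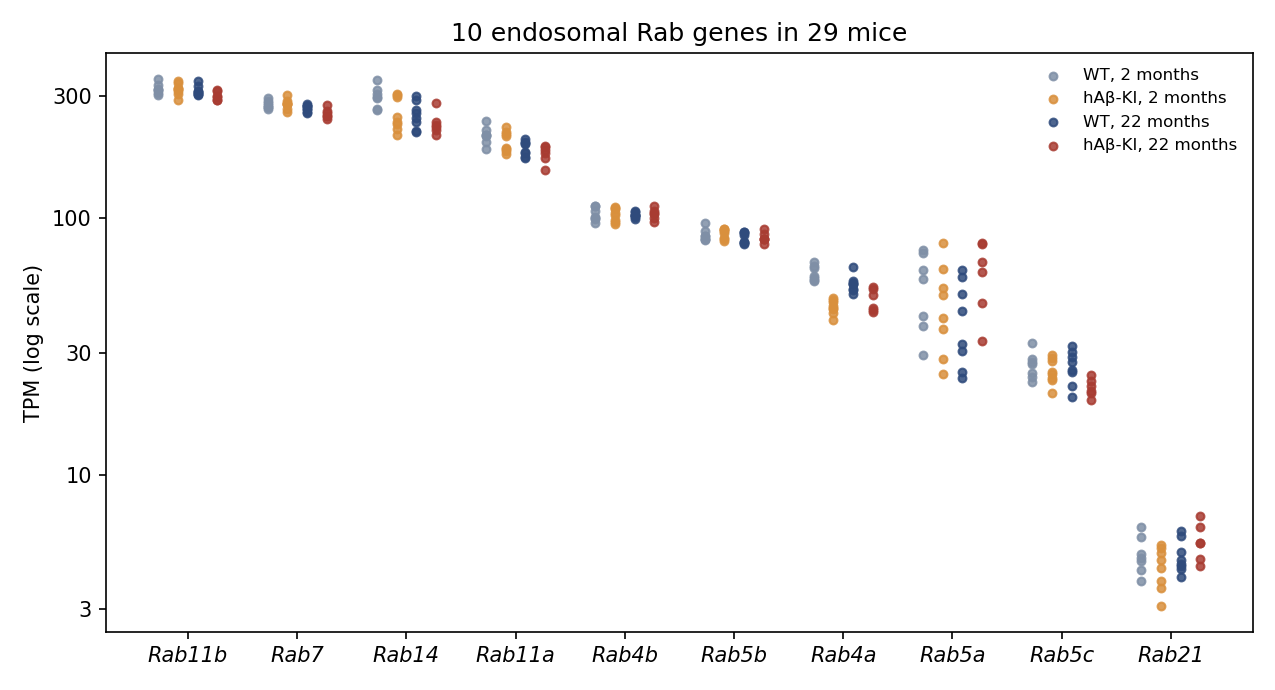
TPM (log scale) of the 10 endosomal Rab genes, ordered by mean level, with 1 point per mouse and 1 colour per group. Rab5a spreads from 23.9 to 80.3 TPM, and Rab4a is the gene whose WT and hAβ-KI mice do not overlap at 2 months.

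Rab4a sits on early and recycling endosomes and speeds the return of internalized receptors to the surface. Its gene lies at chr8:123805985-123835287 on the plus strand (GRCm38). At 2 months it ranged from 57.1 to 67.7 TPM (median 59.5) in WT mice and from 40.3 to 49.0 TPM (median 45.2) in hAβ-KI mice. The highest hAβ-KI mouse was thus below the lowest WT mouse, in males and in females alike. The means were 61.5 ± 4.27 TPM (SD, n = 7) and 45.3 ± 2.85 TPM (SD, n = 8), and the difference on the log2(TPM + 1) scale was -0.43 (standard error 0.06), or 74.1% of the WT level. This contrast chose the gene, so it is given as a description with no test. In it, 0.0386% of all genes tested were called (limma, adjusted p under 0.1 and p under 0.05), and for 0.0707% of them, 11 genes, the genotypes did not overlap.

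At 22 months the groups overlapped. Rab4a ranged from 51.0 to 64.6 TPM (median 55.4) in WT mice and from 43.1 to 54.1 TPM (median 47.6) in hAβ-KI mice, with means of 55.7 ± 4.15 TPM (SD, n = 8) and 48.3 ± 4.92 TPM (SD, n = 6). These mice played no part in choosing the gene. The difference was -0.20 (standard error 0.06, 95% interval -0.32 to -0.08), or 86.8% of the WT level, and did not pass the test across all genes (adjusted p = 0.179, limma). Taken as a single value, it gave p = 0.0113 in a two-sided exact permutation test over the 3003 arrangements of the 14 mice. That test shuffled mice regardless of sex (6 males and 2 females in WT, 3 and 3 in hAβ-KI mice). It also ignored the first numbers that mice share in their names (3 numbers in WT and 4 in hAβ-KI mice). The adjusted p was 0.0827 without hAβ-KI replicate 1 and 0.0852 without hAβ-KI replicate 2, both old males, with differences of -0.24 and -0.23. Either omission brought Rab4a past the threshold, and leaving out any other single mouse did not. The adjusted p was highest, 0.406, without hAβ-KI replicate 5, an old female (difference -0.17, limma). The summed hippocampal neuron markers were also lower in the old hAβ-KI mice (median 321 TPM) than in the old WT mice (median 358 TPM). Within groups they had r = -0.27 with Rab4a, and their part in the difference was not tested. Of all genes tested, 0.495% were called at 22 months and 0.328% did not overlap between genotypes, and no endosomal Rab gene was among either.

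**Figure D2:**
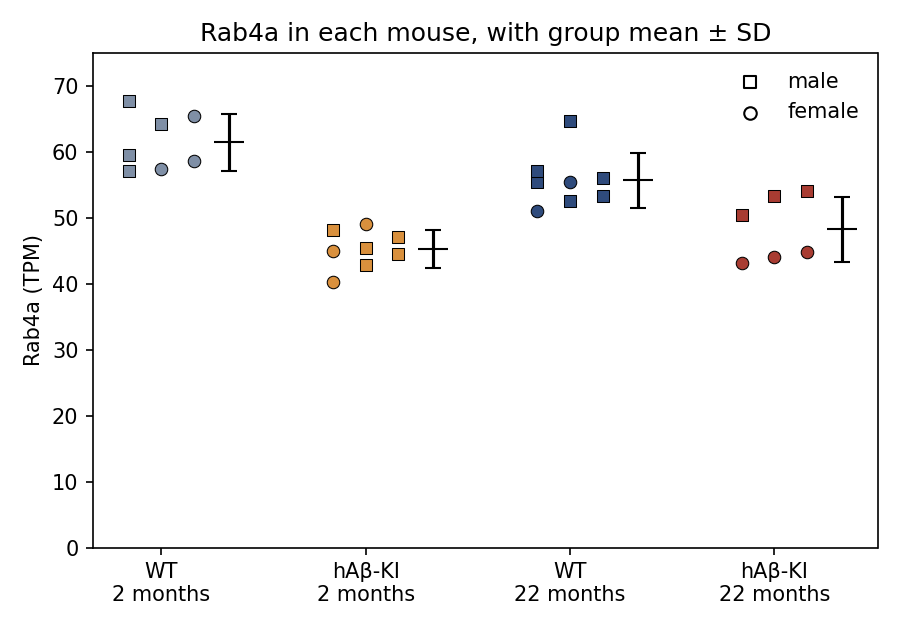
Rab4a (TPM) in each mouse of the 4 groups, with squares for males and circles for females and, to the right of each group, the mean ± SD. The 2-month groups are separate, and in the 22-month hAβ-KI group the 3 males lie above the 3 females.

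The old hAβ-KI mice split by sex. The 3 males had 54.1, 53.3 and 50.4 TPM of Rab4a, and the 3 females 44.8, 43.1 and 44.0 TPM. The old WT males ranged from 52.5 to 64.6 TPM (n = 6) and the 2 old WT females had 51.0 and 55.4 TPM, so that the genotypes overlapped in males but not in females. With 3 against 2 females, 29.8% of all genes tested did not overlap, and 4 of the 10 Rab genes (Rab4a, Rab5a, Rab5b and Rab11b). With 3 against 6 males the share was 3.38%, and 2 of the 10 (Rab5c and Rab7). Within males the genotype difference was -0.10 and within females -0.27 on the log2(TPM + 1) scale. The sex difference was not shown to differ between the genotypes (log2 difference of the differences -0.17, 95% interval -0.40 to 0.06, adjusted p = 0.687, limma, a comparison made after the values were seen). No gene was called in that comparison (0% of those tested, with 1239 at an unadjusted p under 0.05). In the old hAβ-KI group the sexes did not overlap for 16.2% of all genes tested, and for 3 of the 10 Rab genes (Rab4a, Rab5c and Rab21). The library index ran from 25 to 27 in these males and from 29 to 31 in these females, and sex and the order of this index cannot be told apart there.

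With age, Rab4a went from 61.5 to 55.7 TPM in WT mice (log2 difference -0.14, standard error 0.06) and from 45.3 to 48.3 TPM in hAβ-KI mice (0.09, standard error 0.06). The genotype difference at 22 months was thus smaller than that at 2 months by 0.23 (standard error 0.08). These values use the 2-month mice that chose the gene, and no test was made of them.

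The genes around Rab4a did not share its difference at 2 months. Within 1 Mb of it on either side, 40 other genes were tested, and none was called between genotypes at 2 or 22 months (limma). Of all genes tested, 0.0386% and 0.495% were called at these ages, so that the lack of a call among 40 genes says little. At 2 months, 21 of the 40 had a lower mean in hAβ-KI mice. Their log2 differences had a median of -0.01 and ran from -0.12 to 0.24, while 64.6% of all genes tested were lower. The nearest gene after it was 2810455O05Rik, 3.27 kb away, with a difference of 0.06 at 2 months and 0.43 at 22 months. Ccsap, 5.54 kb after it, had -0.11 at 2 months. The nearest tested gene before it was Rhou, 142 kb away, with -0.12 at 2 months and 0.04 at 22 months. The long predicted gene Gm20388 spans the locus on the same strand, and none of the 1752 stretches of 43 bases (the read length) in the Rab4a transcripts occurred in a transcript of another gene.

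**Figure D3:**
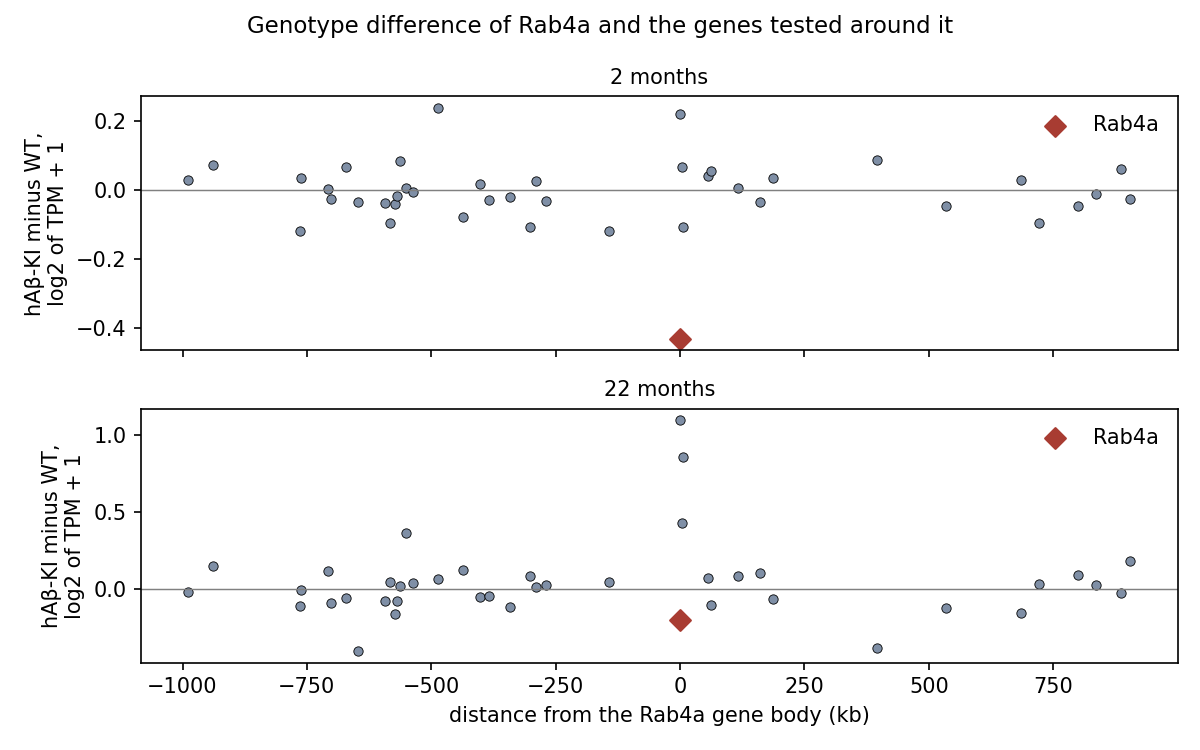
Genotype difference (hAβ-KI minus WT, log2 of TPM + 1) of Rab4a (red diamonds) and of the 40 other genes tested within 1 Mb, against the distance from the Rab4a gene body in kb, at 2 months (upper panel) and 22 months (lower panel). At 2 months Rab4a lies at -0.43 and the others between -0.12 and 0.24.

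The genes whose levels were most like Rab4a over the 29 mice were Sat2 (Pearson r = 0.71), the proteasome subunit gene Psmc5 (r = 0.71) and Ermard (r = 0.70). These r include the group differences by which Rab4a was chosen. For deviations from the group means they included Ankrd10 and the mannose phosphate isomerase gene Mpi (each r = 0.75). The same libraries underlie all these values, which are descriptions over 29 mice. Within groups Rab4a had r = 0.10 with the summed neuron markers, -0.31 with those of oligodendrocytes, -0.20 with those of microglia and 0.12 with those of choroid plexus. The largest in size were with library measures, 0.40 with the number of genes at 1 TPM or more and 0.39 with the summed TPM of all listed genes. Next came -0.37 with the astrocyte markers and 0.34 with those of endothelium. The part of these measures in the differences of Rab4a was not tested.

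Its paralog Rab4b did not follow it. Rab4b ranged from 96.1 to 112 TPM (median 101) in WT and from 95.1 to 111 TPM (median 104) in hAβ-KI mice at 2 months, and from 99.6 to 107 and 96.9 to 112 TPM at 22 months (medians 103 and 104). All 4 groups overlapped, with means between 103 and 104 TPM. The genotype difference was -0.01 (standard error 0.04) at 2 months and 0.01 (95% interval -0.07 to 0.10, adjusted p = 0.952, limma) at 22 months. Of the summed Rab4a and Rab4b TPM at 2 months, Rab4a accordingly made up 37.1% ± 1.44 in WT mice, against 30.4% ± 1.11 in hAβ-KI mice (SD). At 22 months these shares were 35.0% ± 1.88 and 31.7% ± 2.56 (SD). Of the Rab4b stretches of 43 bases, 57.1% also occur in the overlapping read-through gene Gm21983, which was listed at 0 to 0.75 TPM. Of the stretches of Rab4b, 1.29% at most were shared with another gene of the set.

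Among the Rab5 genes, which encode GTPases of early endosome fusion, Rab5a stood apart by its spread between mice. It ranged from 29.5 to 75.5 TPM (median 58.2) in WT and from 24.8 to 80.3 TPM (median 45.5) in hAβ-KI mice at 2 months, and from 23.9 to 62.9 (median 38.0) and 33.2 to 80.2 TPM (median 65.0) at 22 months. Every group held low and high mice. Its within-group SD was 0.53 on the log2 scale, above that of 96.3% of the genes tested. At 22 months the genotype difference of Rab5a was 0.60 (95% interval 0.06 to 1.14, adjusted p = 0.430, limma) and did not pass the test. The 2 old WT females had 32.5 and 23.9 TPM and the 3 old hAβ-KI females 79.8, 80.2 and 62.1 TPM. The old males ranged from 25.3 to 62.9 TPM in WT and from 33.2 to 67.9 TPM in hAβ-KI mice. The genotype difference was 1.37 in females and 0.13 in males, and the sex difference was not shown to differ between genotypes (1.24, 95% interval 0.21 to 2.26, adjusted p = 0.615, limma).

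Rab5a varied together with many other genes. After the group means were removed, 130 of the 15554 genes tested had r above 0.9 with Rab5a over the 29 mice, whereas Rab14 had 1 such gene and each of the 8 others none. The closest were Habp4, an RNA-binding protein gene (r = 0.99, 17.6 to 130 TPM), and Ccsap, a spindle protein gene (r = 0.99, 4.13 to 31.3 TPM). Ccsap lies 5.54 kb beyond Rab4a, and its genotype difference of 0.85 at 22 months (adjusted p = 0.457, limma) is thus set beside Rab4a in the plot of neighbours. The 130 genes included the recycling GTPase gene Rab10 (r = 0.97, 27.1 to 75.1 TPM), the stimulatory G protein gene Gnas (r = 0.98) and the oligodendrocyte lineage factors Olig2 (r = 0.96) and Sox10 (r = 0.94), named after their values were seen. The summed oligodendrocyte markers had r = 0.13 with Rab5a and those of oligodendrocyte precursors -0.63. The longest transcripts of the 130 genes had a median GC content of 55.2%, against 49.9% for all genes tested, while that of Rab5a had 46.7%. The part of GC content in this pattern was not tested.

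**Figure D4:**
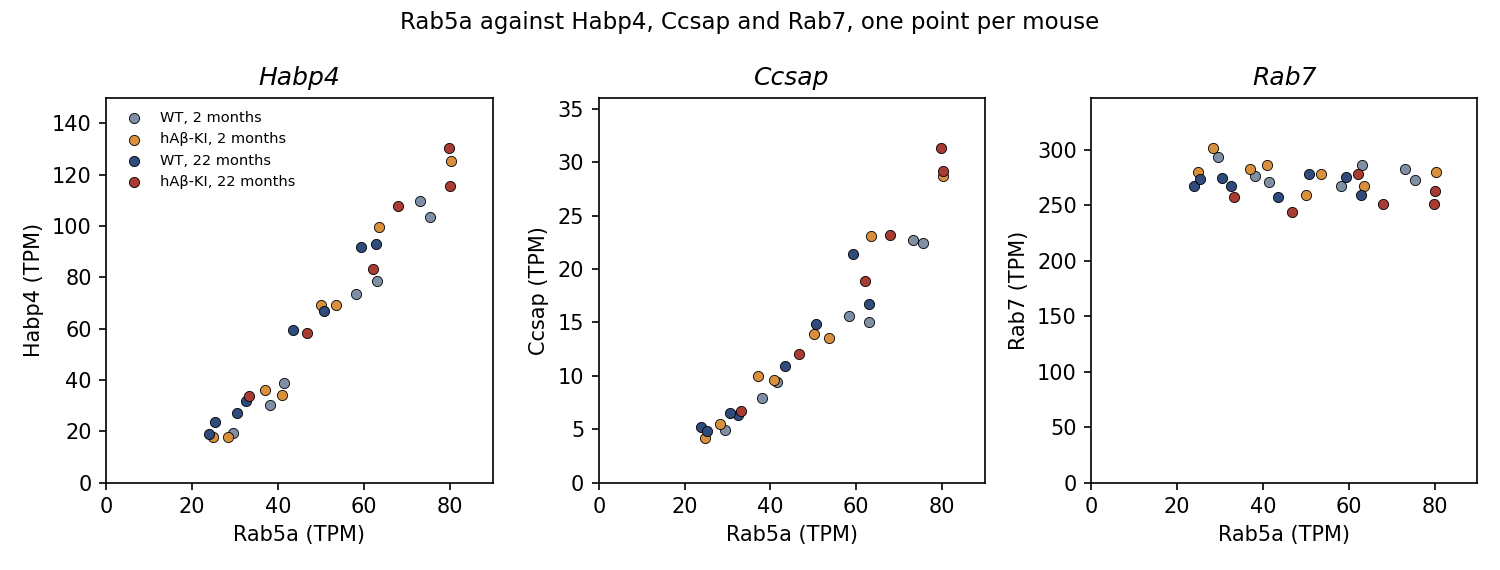
TPM of Habp4 (left), Ccsap (middle) and Rab7 (right) against TPM of Rab5a, with 1 point per mouse and 1 colour per group. Habp4 and Ccsap lie along a line with Rab5a in all 4 groups, while Rab7 stays between 244 and 302 TPM.

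Rab5b and Rab5c did not vary with Rab5a (r = -0.27 and 0.22). Rab5b held steady, with group means from 84.1 to 87.3 TPM and a within-group SD of 0.07 on the log2 scale, and its genotype difference was 0.02 at 2 months and 0.01 at 22 months (adjusted p = 0.976, limma). Rab5c ranged from 23.1 to 32.7 TPM (median 27.1) in WT and 20.9 to 29.3 TPM (median 25.04) in hAβ-KI mice at 2 months, and from 20.2 to 31.7 (median 26.6) and 19.6 to 24.6 TPM (median 21.7) at 22 months. The old hAβ-KI mice lay in the lower part of the old WT range or below it. The difference at 22 months was -0.25 (95% interval -0.43 to -0.06, adjusted p = 0.298, limma) and did not pass the test. The old hAβ-KI males had 21.2, 20.8 and 19.6 TPM and the females 22.2, 23.3 and 24.6 TPM.

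Rab7, the GTPase of late endosomes, was the steadiest of the 10 genes and the one that passed a test. Its within-group SD of 0.05 on the log2 scale was below that of all but 0.109% of the genes tested. In hAβ-KI mice it ranged from 260 to 302 TPM (median 280) at 2 months and from 244 to 278 TPM (median 255) at 22 months. The 2 ages overlapped, with 4 old mice below the lowest young mouse. It fell with age in hAβ-KI mice from 279 ± 12.4 to 258 ± 11.8 TPM (log2 difference -0.12, standard error 0.03, adjusted p = 0.0344, limma), to 92.2% of the young level. In a fit of those 14 mice alone the adjusted p was 0.111. The summed hippocampal neuron markers had medians of 373 TPM in the young and 321 TPM in the old hAβ-KI mice. Their r with Rab7 within groups was 0.33. The summed general neuron markers had medians of 4031 and 3739 TPM in these groups and r = 0.52 with Rab7. The summed TPM of all listed genes had r = 0.55 with Rab7, with medians of 737592 and 743314 TPM. The part of these sums in the fall was not tested. Without replicate 2, the old mouse with the lowest sum, the age difference of Rab7 was -0.12 (adjusted p = 0.0457, limma). In WT mice it went from 279 ± 9.23 to 269 ± 7.53 TPM (-0.05, 95% interval -0.11 to 0.02, adjusted p = 0.469), and the age difference was not shown to differ between genotypes (-0.07, 95% interval -0.16 to 0.02, adjusted p = 0.784). Of the endosomal Rab genes, 1 of the 9 tested was called with age in hAβ-KI mice, where 9.18% of all genes tested were called. Without hAβ-KI 2-month replicate 3, 4 or 5 or hAβ-KI 22-month replicate 5 that count was 2, with Rab21 or Rab11a beside Rab7. Of its 43-base stretches, 14.5% occur in other genes, most of them in the pseudogene Rab7-ps1.

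To set the least and the most variable gene side by side, a 300-base window from 250 bases before to 50 after a RefSeq start (GRCm38.p6) is given for each. The capitals mark CACGTG (the E-box) and TGACGTCA (the cyclic AMP response element), which read the same on both strands and were chosen after the sequences were seen. Rab5a is on the plus strand at chr17:53478984-53479283 and Rab7 on the minus strand at chr6:88045221-88045520. Rab7 also had a window at another start, chr6:88044968-88045267, which is not shown.
Rab5a: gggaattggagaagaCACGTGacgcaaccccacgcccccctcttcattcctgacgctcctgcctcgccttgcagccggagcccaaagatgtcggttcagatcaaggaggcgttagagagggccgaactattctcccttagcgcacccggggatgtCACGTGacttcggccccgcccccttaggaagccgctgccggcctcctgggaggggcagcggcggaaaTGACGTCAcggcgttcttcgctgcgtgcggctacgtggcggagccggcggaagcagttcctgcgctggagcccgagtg
Rab7: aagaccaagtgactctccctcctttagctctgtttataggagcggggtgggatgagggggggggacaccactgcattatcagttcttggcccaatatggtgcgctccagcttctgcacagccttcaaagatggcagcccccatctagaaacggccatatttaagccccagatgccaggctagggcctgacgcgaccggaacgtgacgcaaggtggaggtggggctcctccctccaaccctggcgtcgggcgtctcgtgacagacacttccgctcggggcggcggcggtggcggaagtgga
The Rab5a window held CACGTG 2 times and TGACGTCA 1 time, and the Rab7 window shown held neither, as did the other Rab7 window. Of 9 Rab genes with a window, 2 held CACGTG (Rab5a and Rab21) and 1 held TGACGTCA. Over all 32851 windows the shares were 7.15% and 1.79%. Of the 96 genes with a window among the 130 that varied with Rab5a, 14.6% held CACGTG and 5.21% TGACGTCA, against 11.3% and 3.49% of 11228 genes tested. These are matches of letters only.

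Rab11a and Rab11b, which guide cargo through the recycling endosome, were lowest on average in old hAβ-KI mice. Rab11a ranged from 187 to 239 TPM (median 212) in WT and 178 to 228 TPM (median 199) in hAβ-KI mice at 2 months, and from 172 to 204 (median 188) and 155 to 192 TPM (median 182) at 22 months. The ages overlapped in both genotypes. The age difference was -0.17 in WT (95% interval -0.29 to -0.05, adjusted p = 0.117) and -0.16 in hAβ-KI mice (95% interval -0.28 to -0.03, adjusted p = 0.124, limma), and neither passed. Without old hAβ-KI replicate 2, which had the lowest hippocampal marker sum, the latter was -0.12 (adjusted p = 0.269, limma). Within groups Rab11a had r = 0.47 with that sum and 0.51 with the choroid plexus sum. Their part in the age differences was not tested. Rab11b group means ran from 301 to 320 TPM, with an age difference of -0.08 in hAβ-KI mice (95% interval -0.16 to -0.01, adjusted p = 0.196, limma). Its within-group SD was 0.07 on the log2 scale.

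Rab14, which acts between endosomes and the trans-Golgi network, ranged from 264 to 345 TPM (median 298) in WT and from 212 to 306 TPM (median 244) in hAβ-KI mice at 2 months. At 22 months it ranged from 217 to 300 TPM (median 252) and from 211 to 282 TPM (median 230). Its difference of -0.22 at 2 months was the next in size to that of Rab4a, with overlapping groups and no test. Its age difference in WT mice was -0.24 (95% interval -0.41 to -0.07, adjusted p = 0.132, limma). Rab21 had group means of 4.92 and 4.396 TPM at 2 months and 4.85 and 5.54 TPM at 22 months in WT and hAβ-KI mice. Its age difference in hAβ-KI mice was 0.28 (95% interval 0.06 to 0.50, adjusted p = 0.132, limma), and the old hAβ-KI males had 5.46, 6.25 and 6.94 TPM and the females 4.73, 4.44 and 5.42 TPM.

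**Figure D5:**
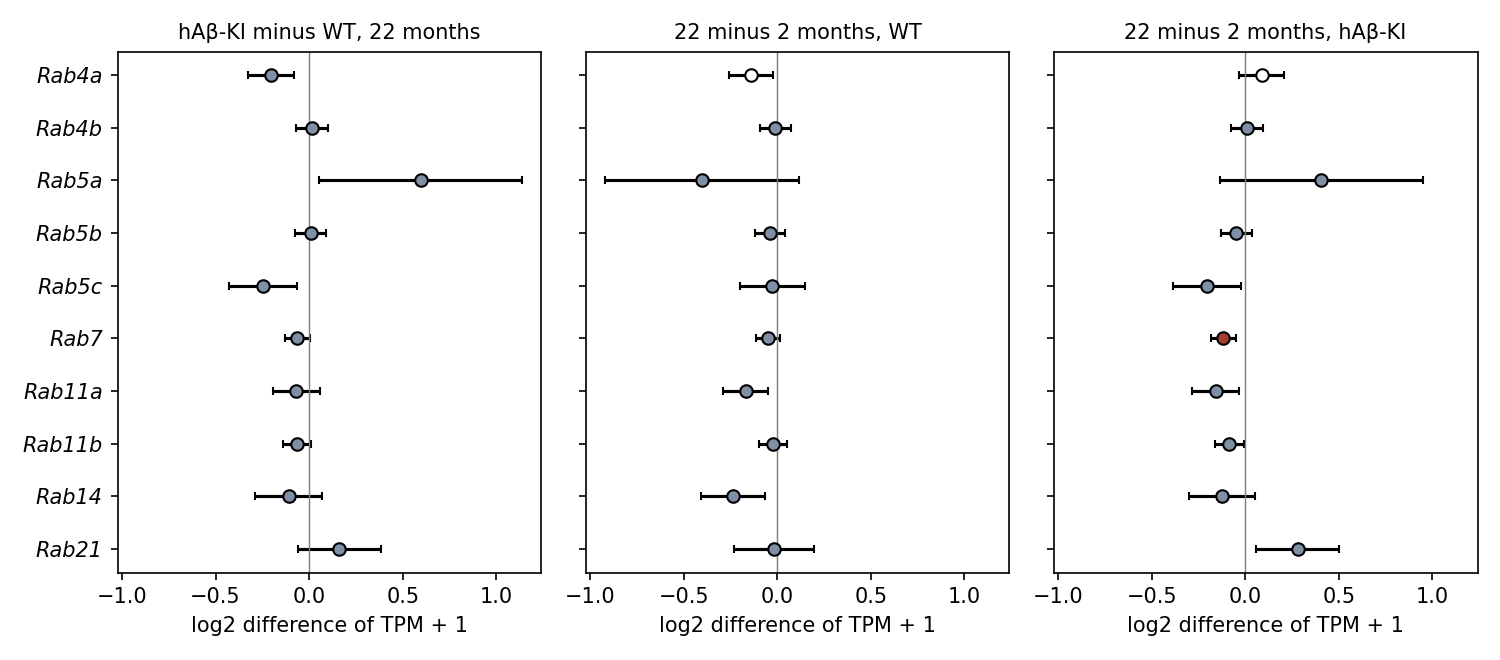
Differences (log2 of TPM + 1) with 95% intervals of the 10 genes between genotypes at 22 months (left) and between ages in WT (middle) and hAβ-KI mice (right). The red point, Rab7 with age in hAβ-KI mice at -0.12, passed the test, grey points did not, and open points (Rab4a with age) were not tested.

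As a set, the 10 genes gave 0 calls at 22 months between genotypes (3 at an unadjusted p under 0.05, limma), 0 of 9 with age in WT mice (2 at an unadjusted p under 0.05) and 1 of 9 with age in hAβ-KI mice (5 at an unadjusted p under 0.05). The shares of all genes tested at that unadjusted level were 10.2%, 16.2% and 19.9%. With age in WT mice the 9 genes other than Rab4a were all below 0, as were 59.2% of all genes tested. Rab4a was below 0 too, but its 2-month WT values had a part in choosing it. With Rab4a included the median was -0.04, against -0.03 for all genes tested. After quantile normalization or rescaling to nuclear protein-coding genes, 6 of the small differences of those 9 genes turned to the other side of 0. In that comparison 5% of all genes tested were called, 38.6% of them upward, and the upward share was 62.7% after quantile normalization and 57.3% after rescaling. Without WT 2-month replicate 5 or WT 22-month replicate 2, 4 or 8 the count of endosomal Rab genes called with age in WT mice was 1 (Rab11a or Rab14). For the difference between the genotype differences at the 2 ages, 0.00643% of all genes tested were called (1 gene) and none of the 9 Rab genes tested (1, Rab5a, at an unadjusted p under 0.05, as were 6.86% of all genes tested). The Rab5a value was 0.81 (95% interval 0.06 to 1.56, adjusted p = 0.712, limma). The median of the 10 genes at 22 months between genotypes was -0.06, against -0.01 for all genes tested.

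The partners of these GTPases likewise held no call between the genotypes at 22 months. None of 42 other Rab genes, 5 Rab4 effectors, 18 Rab5 exchange factors, effectors and GTPase-activating proteins, 16 Rab7 partners, 12 Rab11 partners, 4 Rab14 and Rab21 regulators, 10 retromer and sorting nexin genes, 7 general Rab regulators or 15 endosomal cargo genes passed the test (limma). Those with an unadjusted p under 0.05 numbered 4, 1, 3, 1, 2, 1, 0, 1 and 1, in the same order. Together they were 14 of 129 (10.9%), near the 10.2% of all genes tested, of which 0.495% were called. The lists overlap, with Rabep1 in the Rab4 and Rab5 lists and Rab11fip1 in the Rab4 and Rab11 lists. Here and below the 129 are thus list entries and not distinct genes. The count called among other Rab genes ran from 0 to 1 when single mice were left out.

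With age, 3 of the 129 listed partners (2.33%) were called in WT mice, against 5% of all genes tested, and 20 (15.5%) had an unadjusted p under 0.05, against 16.2% (limma). Among them, Vps29, a retromer subunit, fell from 208 ± 15.96 to 180 ± 7.43 TPM in WT mice (-0.21, adjusted p = 0.0169, limma).

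In hAβ-KI mice 13 of the 129 listed partners (10.1%) were called with age, 9 of them downward, a share near the 9.18% of all genes tested, and 37 (28.7%) had an unadjusted p under 0.05, against 19.9% (limma). The transferrin receptor gene Tfrc, whose product is the classic recycling cargo, fell from 19.2 ± 3.66 to 12.5 ± 2.55 TPM (-0.58, adjusted p = 0.00805, limma), and Lrp1, an endocytic receptor that binds Aβ, rose from 36.1 ± 6.44 to 47.3 ± 9.18 TPM (0.38, adjusted p = 0.0219, limma). The AMPA receptor subunit gene Gria1 fell by 0.20 and the exocyst gene Exoc6, whose product binds Rab11, fell by 0.26. Among regulators, the Rab5 exchange factor gene Rin1 fell by 0.18, the endosomal lipid kinase gene Pik3c3 by 0.13 and the geranylgeranyl transferase gene Rabggta by 0.16. In the retromer and sorting nexin list Vps26b fell by 0.17 and Snx5 rose by 0.17, and among the other Rab genes Rab40b fell by 0.19 and Rab22a, a relative of Rab5, rose by 0.24. No Rab4 effector, Rab7 partner or Rab14 or Rab21 regulator was called, with 1, 3 and 1 at an unadjusted p under 0.05. When single mice were left out, the count called ran from 0 to 3 for the Rab5 list, 1 to 3 for the other Rab genes, the retromer list and the general regulators, 3 to 5 for cargo, 0 to 2 for Rab7 partners, 1 to 2 for Rab11 partners and 0 to 1 for Rab4 effectors. Whether these age differences differed between the genotypes was tested gene by gene in the same fit, and no listed partner was called (limma, 8 of 129 or 6.20% at an unadjusted p under 0.05, against 6.86% of all genes tested).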

How the data were processed

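Hippocampal RNA from single mice was made into cDNA by Smart-seq2 and tagmented (Nextera) for paired-end sequencing, with 43 bases per read. Per the labels and the methods, the authors mapped reads by STAR 2.5.1b (GRCm38), quantified genes by RSEM 1.2.22 with Gencode vM8 and deposited the TPM of each gene, for coding and long non-coding genes. A TPM value depends on all other transcripts of its library, which is why rescaled values were also compared. The authors tested with edgeR, which needs counts, so limma 3.58.1 (R 4.3.3) was used here on log2(TPM + 1), fitting the 4 groups together and letting the variance follow the mean level, with Benjamini-Hochberg adjustment over 15554 genes and the authors' thresholds (adjusted p under 0.1 and p under 0.05). A fold change on this scale understates that of low genes. The exact test of Rab4a used scipy 1.17.1. Groups came from the GEO labels, no sample was left out, and replicate numbers are names in accession order. The labels do not say more on how the samples of a group relate, beyond being separate mice, some of which share the first number of their name within a group.

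The members and the gene lists were chosen with earlier results of these data known. Genes other than members were named by a rule: from each list up to 3 genes called in a contrast with the largest differences, App, the called or nearest genes around Rab4a, and the 3 genes most like Rab4a. The script was tested on simulated data with known differences. Marker sums, Dixon's ratio and correlations are descriptions. Shared 43-base stretches and GC content came from Gencode vM21 transcripts, positions from its annotation (GRCm38), and start windows from RefSeq (GRCm38.p6), found for 9 of the 10 genes. No protein sequence was used here. Some genes that the rule names are not reported here.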

Additional observations from a re-analysis of the deposited data

Results flagged for a closer look

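Of the 40 sets of values (10 genes in 4 groups), 2 held a mouse far from the others by Dixon's ratio, which chance alone gives in about 1 of 20 groups. WT 22-month replicate 6, a male, had 64.6 TPM of Rab4a, while the other 7 mice of its group had 51.0 to 57.1 TPM (ratio 0.550 against a critical value of 0.526). Without that mouse the genotype difference of Rab4a at 22 months was -0.17 (adjusted p = 0.318, limma). hAβ-KI 22-month replicate 6, a female, had 282 TPM of Rab14, while the other 5 mice had 211 to 238 TPM (ratio 0.626 against 0.625). Without that mouse the genotype difference of Rab14 at 22 months was -0.16 (adjusted p = 0.549, limma).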

How the results depend on the processing

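The alternatives were a pseudocount of 0.1, no filter or a mean of at least 1 TPM, quantile normalization, rescaling to nuclear protein-coding genes, a fit of the compared groups alone, sex or a choroid plexus score as a covariate, no variance trend, mice whose names share a first number taken as correlated (estimated correlation 0.047), and leaving out each mouse. Read counts per library were not used here, so the part of depth in these values was not tested. The difference of Rab4a at 22 months kept its direction throughout. It ran from -0.21 to -0.18 under the alternatives (adjusted p from 0.115 to 0.287). When 1 mouse was left out it ran from -0.24 to -0.17 (adjusted p from 0.0827 to 0.406). The same difference of -0.20 had p = 0.0113 in the exact permutation test, which is not adjusted over genes. That test also takes no account of sex or of shared name numbers. The number of endosomal Rab genes called at 22 months was 0 under all alternatives and 0 to 1 without single mice. With age in WT mice the number was 0 to 1 without single mice, and 1 (Rab11a, adjusted p = 0.0814) with the choroid plexus covariate. With age in hAβ-KI mice it was 1 to 2 without single mice, 2 with that covariate or after rescaling, and 0 in the fit of the compared groups alone, where fewer mice set the spread. Rab7 passed in all the others.

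Small tested values changed sign. With age in WT mice, quantile normalization gave 0.0295 for Rab4b, 0.0132 for Rab5b, 0.0176 for Rab5c, 0.0016 for Rab7 and 0.0203 for Rab11b, and rescaling gave 0.0184 for Rab4b, 0.00183 for Rab5c, 0.00468 for Rab11b and 0.00688 for Rab21. For the difference between the genotype differences at the 2 ages, Rab11a was -0.00651 after quantile normalization and with sex as a covariate, -0.00332 after rescaling and -0.00165 with the choroid plexus covariate. The cause was not tested.

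Of the tested values, those that changed sign when single mice were left out ranged as follows. At 22 months Rab4b ranged from -0.0086 to 0.0331 and Rab5b from -0.014 to 0.0248. With age in WT mice Rab4b ranged from -0.0286 to 0.00822, Rab5c from -0.0643 to 0.0257 and Rab21 from -0.0623 to 0.0341, and with age in hAβ-KI mice Rab4b ranged from -0.0125 to 0.0292. For the difference between the 2 ages Rab4b ranged from -0.00234 to 0.0394, Rab5b from -0.0336 to 0.00923 and Rab11a from -0.0196 to 0.0513. At 2 months, where no test was made, Rab4b (-0.0247 to 0.0121), Rab7 (-0.0118 to 0.0189) and Rab11b (-0.0202 to 0.0159) also changed sign. No paired analysis was possible because the labels give no replicate number. The last number of a mouse's name recurs within groups as well as across them, nothing ties it to a litter, batch or day, and the replicate numbers used here are only names.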

Other observations

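Rab7 of late endosomes and Rab5b of early endosomes had the highest correlation between any 2 of the 10 genes after the group means were removed (r = 0.70 over 29 mice). The next pair was Rab4a and Rab11b, both of recycling routes, with r = 0.50. All genes share the same libraries, and these values are descriptions. Both Rab7 and Rab5b share stretches of 43 bases with other genes (14.5% and 10.5% of their stretches), and neither shares any with the other 9 Rab genes. Within groups the summed neuron markers had r = 0.52 with Rab7 and 0.51 with Rab5b. The summed TPM of all listed genes had r = 0.55 and 0.47 with them. The part of these sums in the correlation of the pair was not tested. The Rab5 sum over its 3 genes was 167 ± 18.1 TPM in young WT, 160 ± 16.5 TPM in young hAβ-KI, 152 ± 17.4 TPM in old WT and 168 ± 21.3 TPM in old hAβ-KI mice (SD), of which Rab5a made up 31.7%, 28.8%, 26.5% and 35.96% on average.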
